A study of Mus musculus with 25 samples.

Results

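Whole back skin of mice aged 1 year was compared with that of mice aged 5 months, on 7 of the 25 expression arrays of a mouse hair cycle series. The members were taken from the sample titles, which give 4 mice at 1 year and 3 at 5 months. Each array holds total RNA labelled as coming from 1 mouse, measured on 12488 probe sets, short groups of oligonucleotides that each read 1 transcript. All probe sets other than the platform's 66 control probe sets were considered. The 3 arrays of mice aged 9 weeks were fitted together with these 7 and are given for their levels alone. The groups are named by age only; the labels read here state no strain, sex, treatment, hair phase or time of day at collection.

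Mouse back skin is an epidermis of keratinocytes over a dermis of fibroblasts and collagen, with fat and a thin sheet of skeletal muscle beneath. Hair follicles run through it and cycle: they grow in anagen, regress in catagen and rest in telogen. In older mice neighbouring skin no longer cycles together. Macrophages, dendritic cells and mast cells live in the dermis, where macrophages take up debris and produce complement and proteases. RNA from whole skin mixes all of these, so fewer cells of a type and less RNA per cell cannot be told apart in any value below.

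The mice within each age were not alike in hair phase. Krt31, a keratin of the hair shaft, read 82.3, 6448.3 and 129.3 intensity units in mice 1 to 3 at 5 months, and 53.2, 9816.1, 38669.7 and 9210.4 units in mice 1 to 4 at 1 year. The inner root sheath keratin Krt71 read 116.4, 13350.4 and 248.6 units at 5 months and 118, 18502.9, 44474.8 and 14956.7 units at 1 year. Mouse 2 at 5 months and mice 2 to 4 at 1 year thus carried high levels of both genes, and the other 3 mice low ones. The mean log2 level of 23 hair shaft genes was 7, 11.49 and 7.15 at 5 months and 6.77, 12.05, 13.6 and 11.85 at 1 year. Msx2, a homeobox gene of the growing follicle, followed the same mice, at 744.6 units in mouse 2 against 17.9 and 20.4 in mice 1 and 3 at 5 months, and at 14.8 units in mouse 1 against 564.2, 1741.9 and 503.9 in mice 2 to 4 at 1 year. Pmel, a pigment granule protein, was highest in mouse 3 at 1 year, with 2639.5 units against 175.7 to 677.2 in the other mice of that age.

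No hair shaft gene passed the test between the ages (limma, Benjamini-Hochberg adjusted p under 0.05), although the median log2 change of the 23 was 2.72. At an unadjusted p under 0.05, 2 were higher at 1 year and 0 lower. Within an age the mice were far apart: the median SD of log2 levels was 2.74 for hair shaft genes at 5 months and 3.07 at 1 year, against 0.2 and 0.3 over all genes. None of the 15 inner root sheath genes tested passed either, with a median of 1.1, and 0 were higher and 1 lower at an unadjusted p under 0.05. With the hair shaft level of each mouse as a covariate, the 2 medians were -0.01 and -0.22.

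Sex markers also differed between the ages. Xist, the RNA of the inactive X chromosome in females, read 892, 8.9 and 861.2 units at 5 months and 10.6, 8, 25.1 and 3.8 units at 1 year. Eif2s3y, a Y chromosome gene, read 2, 293.1 and 5.3 units at 5 months and 339.8, 323.5, 334.4 and 267.7 units at 1 year. By these markers 2 of 3 mice at 5 months were female and all 4 at 1 year were male, and at 9 weeks mice 1 and 2 were female and mouse 3 male. The only male at 5 months, mouse 2, was also the only mouse of that age with high hair shaft genes. Counts with the sex marker as a covariate therefore stand beside the gene lists below, and medians in males alone beside some of them. In males alone each of the younger ages is 1 mouse, and its spread is taken from the 1-year mice.

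The arrays of the 2 ages also differed in their brightest signals. After the authors' scaling, the mean after trimming 2% of probe sets at each end was 500.26 to 500.36 units on these 7 arrays, but the highest intensity was 25924.7, 31315.4 and 32416.4 units at 5 months against 69900.5 to 78877 units at 1 year and 55898.6 to 67622.9 at 9 weeks. In the brightest 10% of probe sets the median log2 change was 0.21, with 164 higher and 37 lower, and in the dimmest 10% it was -0.25, with 14 higher and 64 lower. Quantile normalisation, which gives all arrays the same distribution, reduced these medians to -0.04 and -0.07. No label read here places arrays in processing batches, and such a batch cannot be told apart from age. The signal ratio of the 3' to the 5' Gapdh control probe sets, a measure of RNA length, was 0.86 to 0.92 at 5 months and 1.04 to 1.23 at 1 year, while that of Actb overlapped, at 1.18 to 1.3 and 0.94 to 1.25. The part of these differences in the results was not tested beyond the values given. The number of arrays limits the precision.

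**Figure D1:**
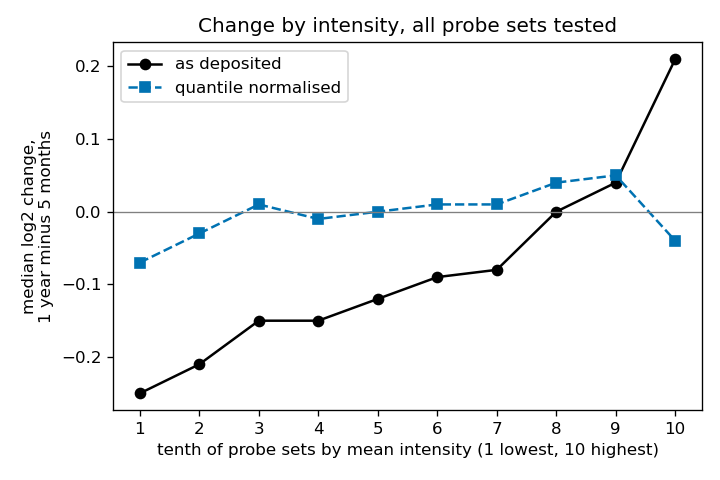
Median log2 change (1 year minus 5 months) of the probe sets tested, in 10 equal classes by mean intensity, as deposited and after quantile normalisation. As deposited the medians run from -0.25 in the dimmest class to 0.21 in the brightest, and after quantile normalisation from -0.07 to -0.04 at these ends.

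Of 7891 probe sets tested, 520 were higher and 775 lower at 1 year than at 5 months, 16.4% in all (limma, adjusted p under 0.05). Among them 112 were higher and 370 lower by at least 2-fold. With 1 probe set for each of 6009 genes, 410 genes (6.82%) were higher and 598 (9.95%) lower, the median log2 change of all genes was -0.05, and the 7 arrays did not overlap between the ages for 1834 genes (30.5%). With each array centred on its median, the median change over all probe sets went from -0.07 to 0.09, which turned the split to 876 higher and 483 lower, 64.5% of calls higher against 40.2%. The counts fell to 142 higher and 208 lower without mouse 1 at 5 months, to 235 and 355 without mouse 3, and to 336 and 514 without mouse 2. Without mouse 2 or mouse 4 at 1 year they were 332 and 491, or 320 and 502. With the sex marker as a covariate 97 were higher and 136 lower. In males alone limma called 0 probe sets, with 387 higher and 452 lower at an unadjusted p under 0.05.

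Macrophage and dendritic cell genes were lower at 1 year. Of 27 genes of this list tested, 23 fell and 0 rose, against 9.95% of all genes lower, and their median log2 change was -1.66 against -0.05 for all genes. In all 23 each 5-month mouse lay above each 1-year mouse, beside 30.5% of all genes with no overlap in either direction. As the 23 were called on these same arrays, their lack of overlap is no separate evidence. Lyz2, the lysozyme of macrophages and neutrophils, read 6970, 4101.8 and 4316.7 units at 5 months and 1127.4, 967.3, 824.5 and 1009.9 units at 1 year. The lowest 5-month value was above the highest 1-year value, and the log2 change was -2.35 ± 0.22 (SE; limma adjusted p = 0.00125). Mrc1, the mannose receptor of tissue macrophages, read 1462.6, 678.7 and 1156.6 units at 5 months and 161.6, 233.5, 171 and 233.8 units at 1 year, a change of -2.41 ± 0.31 (adjusted p = 0.00191). Adgre1, which encodes the macrophage surface protein F4/80, read 722.4, 218 and 405.5 units and then 50.3, 80.2, 48 and 40.2 units, with a change of -2.92 ± 0.47. Mouse 2 was the lowest of the 5-month mice for both genes and still above every 1-year mouse.

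Other members had the same order of ages. Ctss, the lysosomal protease cathepsin S of antigen-presenting cells, read 4861.4, 4954.2 and 3980.9 units at 5 months and 1149.2, 1330.1, 920.9 and 1365.8 units at 1 year, a change of -1.96 ± 0.24 (limma adjusted p = 0.00176). Cd68, a lysosomal membrane protein of macrophages, read 2327.8, 1367.9 and 1284 units and then 422.3, 267.8, 599.6 and 362.2 units, a change of -2.01 ± 0.32. Csf1r, the receptor for the growth factor that macrophages need to survive, changed less, by -0.93 ± 0.24 (adjusted p = 0.0251), from 1899.2 to 3407.8 units at 5 months to 1004.2 to 1516.6 units at 1 year. Ccr2, the chemokine receptor of monocytes that enter tissue from blood, read 1230.2, 464.5 and 887.7 units at 5 months and 87.5, 124.7, 94.6 and 134.9 units at 1 year, a change of -2.88 ± 0.39. Ptprc, which encodes the leukocyte protein CD45, read 409.5, 179 and 324.8 units and then 45.5, 11.2, 25.5 and 7.5 units, of which 3 lie under the floor of 32.7 units used before log2. A second Ptprc probe set changed by -2.26 ± 0.34. Ptprc, Adgre1, Itgam and Cd86 passed the filter on dim probe sets only through the 5-month arrays, so that a difference in them was favoured by the filter. Among the 23 members that did not depend on those arrays 20 were lower, with a median of -1.59, and a filter on at least 5 arrays left 22 lower. Epcam, which Langerhans cells of the epidermis share with follicle epithelium, changed by -1.31 ± 0.17. The 4 members that did not pass were Cx3cr1 (-0.07 ± 0.21), Lgals3 (0.03 ± 0.16), Cd86 (-0.26 ± 0.56) and Cd83 (0.25 ± 0.59), and the last 2 were dim, with means of 78.6 to 105.6 units.

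The mean log2 level of the 27 genes was 10.11, 9.52 and 9.85 at 5 months and 8.12, 8.36, 8.28 and 8.29 at 1 year. Mouse 1 at 1 year, with hair shaft genes as low as mice 1 and 3 at 5 months, had the lowest macrophage level of all 7. Mouse 2 at 5 months, with hair shaft genes near those of mice 2 and 4 at 1 year, had a macrophage level above each 1-year mouse by more than the range of the 1-year group, and the lowest of the 5-month mice. With the hair shaft level as a covariate 21 of the 27 were lower, with a median of -1.51. With the sex marker as a covariate 15 were lower, with a median of -1.26, and Lyz2 changed by -2.09 (adjusted p = 0.013). In males alone, 24 of the 27 changes were negative, with a median of -1.45, and although 0 passed after adjustment, 21 were lower at an unadjusted p under 0.05 (limma). Quantile normalisation left 23 lower, with a median of -1.54.

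**Figure D2:**
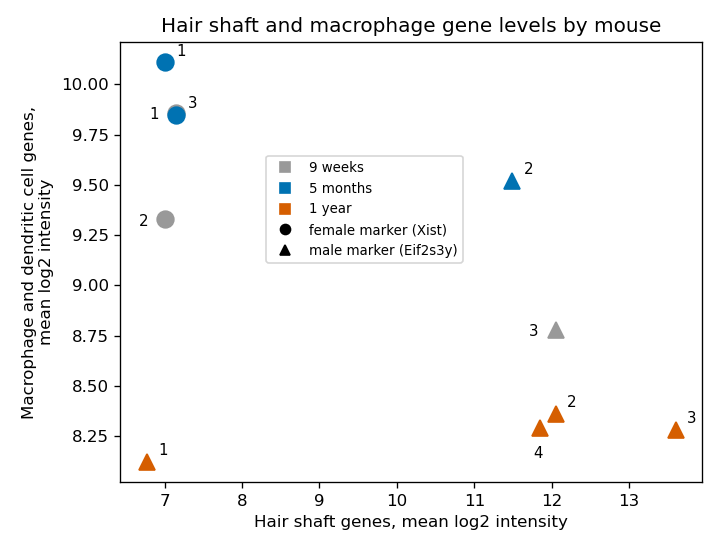
Mean log2 intensity of the hair shaft genes (horizontal) and of the macrophage and dendritic cell genes (vertical) in each mouse, coloured by age, shaped by sex marker and numbered as in the labels. The 1-year mice lie between 8.12 and 8.36 on the vertical axis at hair shaft levels from 6.77 to 13.6, and the 5-month mice between 9.52 and 10.11.

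At 9 weeks the mean log2 level of the macrophage genes was 9.86, 9.33 and 8.78 in mice 1 to 3, and mouse 3, the lowest of the 3, was both the only male and the only mouse with high hair shaft genes (12.05 against 7.15 and 7.01), as mouse 2 was at 5 months. Against 9 weeks, 3 of the 27 were lower at 1 year, beside 0.349% of all genes lower in that comparison: Lyz2 (-1.70), C1qa (-1.94) and C1qb (-2.16). The median change against 9 weeks was -1.15 for 1 year and 0.49 for 5 months, comparisons that share the 9-week arrays. Genes of the list were thus at their highest level at 5 months in some cases, as for Ccr2 with 153.6 to 424.9 units at 9 weeks, and as high at 9 weeks in others, as for C1qa with 2487.9 to 7054.2 units.

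**Figure D3:**
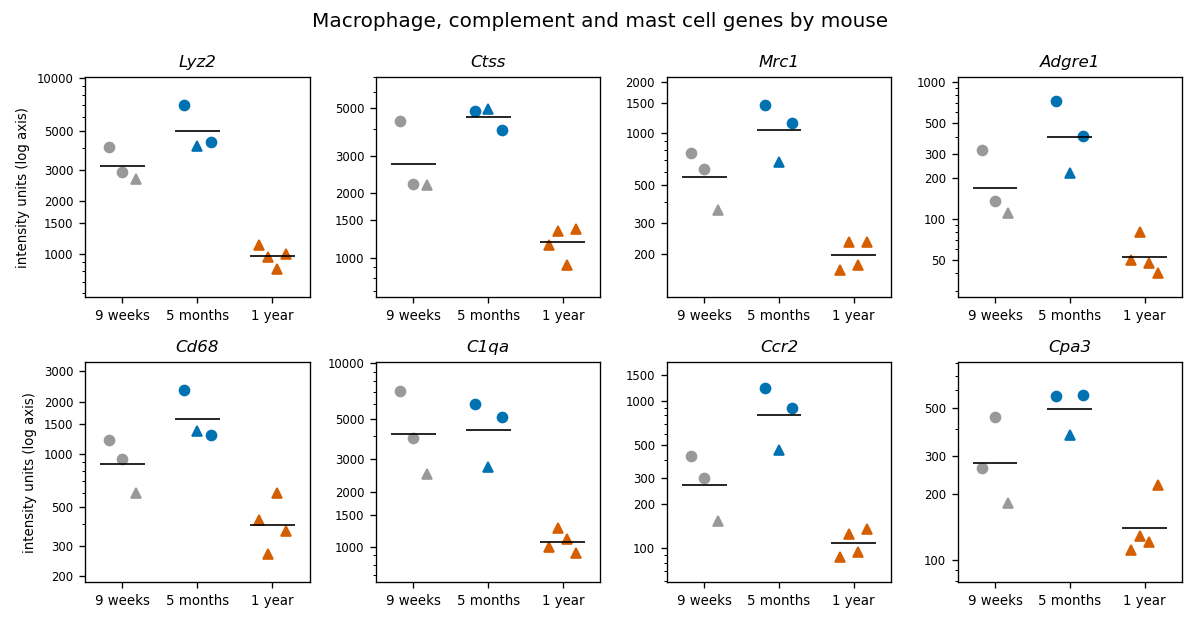
Intensity units on a log axis for 8 genes at 9 weeks, 5 months and 1 year, with 1 point per mouse (circle for the female marker, triangle for the male marker) and a bar at the geometric mean. For each gene the 3 mice at 5 months lie above the 4 mice at 1 year, as in Lyz2 with 4101.8 to 6970 against 824.5 to 1127.4 units.

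The promoters of these genes are shown because 1 of the list's own members, Spi1, encodes the macrophage transcription factor PU.1. Binding sites of PU.1 can hold the letters GAGGAA, the only form searched here. Spi1 was chosen after its values were seen. It read 384.1, 399.3 and 464.7 units at 5 months and 99.1, 138.5, 131 and 161.5 units at 1 year, a change of -1.67 ± 0.22 (limma adjusted p = 0.00191). The 250 bases before the start were taken from RefSeq (GRCm38.p6) for 19 of the 27 genes. GAGGAA or its reverse TTCCTC stood in 9 of the 19 (47.4%), beside 25.9% of 27025 genes with a promoter in the same table, at any listed start. A match is a run of letters and no measured binding, and a window without a match may still hold a site of other letters. Lyz2, Ctss and Mrc1 are printed 5′ to 3′ on the gene's strand, with matches in capitals.
Lyz2, chr10:117282273-117282522, minus strand: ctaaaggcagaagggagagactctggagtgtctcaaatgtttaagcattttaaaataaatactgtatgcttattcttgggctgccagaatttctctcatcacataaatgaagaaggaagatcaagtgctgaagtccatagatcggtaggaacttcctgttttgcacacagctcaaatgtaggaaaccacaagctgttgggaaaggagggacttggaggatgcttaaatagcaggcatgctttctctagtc
Ctss, chr3:95526536-95526785, plus strand: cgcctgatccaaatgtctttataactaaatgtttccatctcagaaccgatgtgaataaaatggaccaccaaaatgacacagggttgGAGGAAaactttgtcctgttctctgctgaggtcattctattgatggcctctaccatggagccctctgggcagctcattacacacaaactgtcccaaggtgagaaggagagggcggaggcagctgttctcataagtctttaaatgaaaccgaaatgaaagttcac
Mrc1, chr2:14229164-14229413, plus strand: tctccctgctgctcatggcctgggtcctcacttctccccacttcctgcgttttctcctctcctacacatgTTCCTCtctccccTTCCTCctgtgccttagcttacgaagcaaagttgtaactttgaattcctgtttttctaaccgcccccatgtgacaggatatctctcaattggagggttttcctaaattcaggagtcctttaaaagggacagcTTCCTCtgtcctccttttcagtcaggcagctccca
Lyz2 holds no match in this window, Ctss 1 and Mrc1 3.

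Complement genes, many of which skin macrophages express, were lower in part. Of 22 complement and coagulation genes tested, 7 were lower and 1 higher and 14 did not pass, beside 9.95% of all genes lower, with a median of -0.46. C1qa and C1qb are also counted in the macrophage list, so the decreases of these lists are in part the same values. Without mouse 1 at 5 months 4 were lower, and with the sex covariate 3. C1qa, a chain of the first complement component, read 5979.6, 2713.4 and 5111.3 units at 5 months and 995.7, 1261, 1109.5 and 923.5 units at 1 year, a change of -2.03 ± 0.34 (limma adjusted p = 0.00476). C3ar1, the receptor for a complement fragment that draws in leukocytes, read 456.5, 333.2 and 290.4 units and then 62.3, 81.1, 73.8 and 81.8 units, a change of -2.25 ± 0.29 (adjusted p = 0.00191). The ages did not overlap for either gene. C1qb changed by -1.98 ± 0.33, while another probe set of it changed by -0.75 ± 0.42 and did not pass. The 1 gene higher was Proc, the anticoagulant protein C, with 59.8, 79 and 106.1 units at 5 months and 178.2, 258.8, 310.4 and 237.3 units at 1 year.

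Chemokines that draw monocytes were among the decreases. Of 20 genes of neutrophils and acute inflammation, 6 were lower and 1 higher (median -0.75), beside 9.95% of all genes lower. Ccl2 read 207.9, 459.7 and 374.5 units at 5 months and 88.5, 93.2, 66.8 and 98.3 units at 1 year, a change of -1.94 ± 0.35 (limma adjusted p = 0.00683). Ccl7 changed by -1.73 ± 0.41 and Ccl9 by -2.25 ± 0.41. Cxcl13, a chemokine for B cells, read 452.8, 146.5 and 122.5 units and then 85.4, 12.7, 12.9 and 44.5 units, with 2 of the 1-year values under the floor. Ccl2 and Ccl7 passed the filter on dim probe sets only through the 5-month arrays. The number lower was 3 without mouse 1 or mouse 3 at 5 months or without mouse 2 at 1 year, and 1 with the sex covariate.

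Genes induced by interferon, the signal of antiviral defence, were lower in part. Of 27 tested, 10 were lower and 0 higher, beside 9.95% of all genes lower, with a median of -0.86. Ifit1, Ifi47, Ifi202b and Rsad2 passed the filter on dim probe sets only through the 5-month arrays. Among the 23 members that did not depend on those arrays 8 were lower, with a median of -0.77. Gbp3, an interferon-induced GTPase, read 803.2, 493.8 and 565.2 units at 5 months and 208.1, 170.8, 117.1 and 176.1 units at 1 year, a change of -1.88 ± 0.23 (limma adjusted p = 0.00176). Irf7, a transcription factor that amplifies the response, read 430, 316.5 and 356.5 units and then 42.6, 104.7, 131.7 and 38.5 units, a change of -2.40 ± 0.45, although a second probe set changed by -0.57 ± 0.39. Trim25, a ubiquitin ligase of the RNA-sensing pathway, changed by -1.15 ± 0.16 and Ifi204, a DNA sensor of the myeloid line, by -2.13 ± 0.37. Ly6e (0.02 ± 0.24) and Ifi27 (0.01 ± 0.24) did not pass and lay close to 0. The number lower was 5 without mouse 1 or mouse 3 at 5 months, 6 with the hair shaft covariate, and 2 with the sex covariate, where the median was -0.57.

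The promoters of 3 of the interferon genes that were lower are shown for the element that interferon-activated factors bind, 2 TTTC blocks spaced by any 2 bases (TTTCNNTTTC, or GAAANNGAAA on the other strand). It stood in the 250 bases before the start of 8 of 22 genes of the list with a promoter in the table (36.4%), beside 3.5% of all genes there. Of the 10 that were lower, 9 had a promoter and 4 of those held it. Matches are in capitals, and overlapping ones run together.
Gbp3, chr3:142559794-142560043, plus strand: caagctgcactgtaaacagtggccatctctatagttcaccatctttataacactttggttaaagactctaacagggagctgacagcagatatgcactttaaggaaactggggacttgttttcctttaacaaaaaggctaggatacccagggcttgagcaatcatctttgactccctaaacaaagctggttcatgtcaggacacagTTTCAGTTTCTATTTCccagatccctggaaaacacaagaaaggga
Isg15, chr4:156200819-156201068, minus strand: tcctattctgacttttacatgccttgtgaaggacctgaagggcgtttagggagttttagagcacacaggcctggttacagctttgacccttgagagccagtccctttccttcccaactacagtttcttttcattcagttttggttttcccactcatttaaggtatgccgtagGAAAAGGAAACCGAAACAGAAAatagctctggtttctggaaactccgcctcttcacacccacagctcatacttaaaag
Ifit1, chr19:34640639-34640888, plus strand: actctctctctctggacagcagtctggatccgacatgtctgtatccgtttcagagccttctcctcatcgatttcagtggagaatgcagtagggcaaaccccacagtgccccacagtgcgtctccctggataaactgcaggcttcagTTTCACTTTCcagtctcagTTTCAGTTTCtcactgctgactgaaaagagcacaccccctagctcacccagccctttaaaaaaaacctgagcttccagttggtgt
Isg15, a ubiquitin-like protein, changed by -1.98 ± 0.53 (limma adjusted p = 0.0298), and Ifit1, which binds foreign RNA, by -2.05 ± 0.57 (adjusted p = 0.0348), though Ifit1 passed the filter on dim probe sets only through the 5-month arrays. Of the 2 listed starts of Gbp3 the one with matches is printed.

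Mast cell and B lineage genes had fewer measured members. Among 8 mast cell genes 3 were lower and 0 higher (median -0.98), beside 9.95% of all genes lower. Hdc and Srgn passed the filter on dim probe sets only through the 5-month arrays. Among the 6 members that did not depend on those arrays 2 were lower, with a median of -0.46. When the sex marker was a covariate limma called 0 of the 8, with 3 lower at an unadjusted p under 0.05 and a median of -0.90, and in males alone the median was -1.04. Cpa3, the carboxypeptidase of mast cell granules, read 563.7, 375.2 and 572.8 units at 5 months and 111, 127.9, 120.6 and 219.3 units at 1 year, a change of -1.83 ± 0.33 (limma adjusted p = 0.00687), although another probe set changed by -0.39 ± 0.39. Cma1, a chymase, changed by -1.69 ± 0.36, while another probe set of it changed by -0.93 ± 0.65 without passing. Tpsb2, a tryptase, changed by -0.38 ± 0.33 without passing. Of 17 B and plasma cell genes 6 were lower and 0 higher, and with the sex covariate 1 was lower. Cd79a, Blk, Jchain and Tnfrsf17 passed the filter on dim probe sets only through the 5-month arrays, and without them 5 of 13 were lower. Igha, the constant region of IgA, read 517.5, 292.6 and 449.5 units and then 85.3, 120.8, 84.5 and 106.8 units, a change of -2.06 ± 0.29. Igkv6-23, a light chain segment whose sequence resembles other segments, read 1682.7, 845.3 and 283.3 units and then 96.5, 77.6, 51.5 and 94 units. The probe sets of Ighm disagreed, at 0.13 ± 0.39, -1.79 ± 0.56 and 1.14 ± 0.36.

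T cells could hardly be followed. Cd3e read 88.8 to 207.6 units at 5 months and 40.4 to 133.1 units at 1 year and did not pass, and Cd3d and Cd3g stayed under the filter on dim probe sets. Of 9 T and NK cell genes tested, 1 was lower, beside 9.95% of all genes lower. It was the kinase gene Zap70, at -1.76 ± 0.37, and with the sex covariate 1 was lower too. Zap70 passed the filter on dim probe sets only through the 5-month arrays. Antigen presentation of class II had 2 of 11 genes lower, Ctss and H2-Eb1 (-1.34 ± 0.36, limma adjusted p = 0.0301), and 5 after quantile normalisation, with a median of -1 against -0.54. With the sex covariate 1 of the 11 was lower, with a median of -0.32. Of 15 class I genes 3 were lower and 1 higher, beside 9.95% and 6.82% of all genes. The 1 higher was H2-D1 at 0.76 ± 0.19, which was 0.09 after quantile normalisation. Other probe sets of H2-D1 changed by 0.23 ± 0.22 and 0.27 ± 0.48 without passing. None of the 15 (0) passed with the sex covariate (limma), with 1 higher and 1 lower at an unadjusted p under 0.05.

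Some proteases and matrix genes of the dermis were lower at 1 year. Of 24 genes of matrix proteases and their inhibitors 7 were lower and 0 higher (median -0.52), beside 9.95% of all genes lower, and without mouse 2 at 5 months 4 were lower. Mmp9, Mmp11 and Adam8 passed the filter on dim probe sets only through the 5-month arrays, and without them 6 of 21 were lower. Mmp12, the elastase of macrophages, read 228, 2056.4 and 493.5 units at 5 months and 93.9, 19.8, 24.1 and 58.7 units at 1 year, the largest decrease of any gene named here, at -3.64 ± 0.65 (limma adjusted p = 0.00621). As 2 of the 1-year values lie under the floor, the change is a lower bound. Its second probe set changed by -1.80 ± 0.70 and did not pass. Adam19, a membrane protease, read 435.6, 407.5 and 363 units and then 117.5, 194, 179.1 and 194.9 units, a change of -1.26 ± 0.24. With the sex covariate 3 of the 24 were lower.

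Of 56 collagen and matrix genes 9 were lower and 3 higher, beside 9.95% and 6.82% of all genes, with a median of -0.19. Thbs2, a matrix glycoprotein that limits vessel growth, read 1409, 838 and 1567.1 units at 5 months and 316.3, 385.6, 170.2 and 320.5 units at 1 year, a change of -2.10 ± 0.30 (limma adjusted p = 0.00264). At 9 weeks Thbs2 read 218 to 312.2 units, near the 1-year level. Dpt, dermatopontin, changed by -1.48 ± 0.25 and Lamc1, a laminin chain of basement membranes, by -1.14 ± 0.19. Col1a1, the main chain of dermal collagen, went the other way, from 15111.5, 26185.9 and 17102.6 units to 60232.4, 52299.6, 48168.1 and 57436.2 units, a change of 1.52 ± 0.25 (adjusted p = 0.00476) that was 0.54 after quantile normalisation and no longer passed. Col1a2 rose by 1.17 ± 0.22, by 0.40 after quantile normalisation without passing, and another probe set of it changed by -0.20 ± 0.16 without passing. Col3a1 changed by 0.55 ± 0.22 without passing. Another Col3a1 probe set passed, at 0.69 ± 0.15, while a further one did not, at -0.08 ± 0.32. Dcn, decorin, a fibroblast marker, was level at -0.04 ± 0.14, but was lower after quantile normalisation, at -0.79 (adjusted p = 0.00532). Without mouse 1 at 5 months 5 of the 56 were lower, and with the sex covariate 2.

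Genes of cholesterol synthesis were higher at 1 year in part. Of 15 tested 7 were higher and 0 lower, beside 6.82% of all genes higher, with a median of 0.56. The list follows the route from the first sterol building blocks to cholesterol. Idi1 and Fdps make the isoprenoid units, Lss closes the sterol ring, and Dhcr7 carries out the last reduction. Fdps read 2198, 3839.5 and 3524.7 units at 5 months and 5801.8, 6541.4, 7252.3 and 7067.7 units at 1 year, a change of 1.10 ± 0.20 (limma adjusted p = 0.00666). Lss read 200.9, 380.4 and 248.5 units and then 593.5, 762.7, 586.3 and 470.4 units, a change of 1.16 ± 0.26, and was also higher than at 9 weeks (1.64, adjusted p = 0.0371). Dhcr7 changed by 1 ± 0.19 and Mvd by 1.03 ± 0.25. The ages did not overlap for 10 of the 15, the 7 called on these arrays among them, beside 30.5% of all genes. Hmgcs1, an early enzyme, changed by -0.16 ± 0.24, and Srebf1, a regulator of lipid synthesis, by 0.23 ± 0.19, and neither passed.

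Mouse 2, the male at 5 months, had the highest level of Fdps, Lss, Dhcr7 and Mvd among the mice of its age. With the sex covariate 0 of the 15 passed (limma), 7 were higher at an unadjusted p under 0.05, and the median was 0.49, and in males alone 13 of 15 changes were positive, also at a median of 0.49. The number higher was 8 after quantile normalisation and 4 with the hair shaft covariate. It was 2 without mouse 1 at 5 months, 3 without mouse 3, and 4 without mouse 1 or mouse 4 at 1 year.

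Genes of the cornified epidermis, the outer barrier, were higher in part. Of 32 tested 7 were higher and 0 lower, beside 6.82% of all genes higher, with a median of 0.55. Lor, loricrin, the main protein of the cornified envelope, read 9472.9, 10345.7 and 7841.1 units at 5 months and 24131.4, 34888.6, 23722.1 and 39232.6 units at 1 year, a change of 1.70 ± 0.19 (limma adjusted p = 0.00159). It kept the call after quantile normalisation (1.14, adjusted p = 0.00748) and with the sex covariate (1.67, adjusted p = 0.0197). At 9 weeks Lor read 23356.4 to 26596.8 units, so that the 5-month mice were the low group. Krt10, a keratin of differentiating keratinocytes, rose by 0.90 ± 0.22, but by 0.14 after quantile normalisation, where it did not pass. Pkp1, a desmosome protein, rose by 0.71 ± 0.13, while another probe set of it changed by -0.19 ± 0.16 without passing. Krt1 and Flg, the filaggrin gene, did not pass, at 0.92 ± 0.38 and 0.45 ± 0.32. Ivl, involucrin, changed by 1.25 ± 0.51, and the small proline-rich gene Sprr2e by -0.55 ± 0.21, neither passing.

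For the list as a whole the median turned to -0.12 with the sex covariate, where 1 of the 32 passed, and to -0.04 in males alone. With the hair shaft covariate the median was 0.12, with 7 of the 32 higher and 2 lower. The mean log2 level of the list was 9.9, 10.63 and 9.86 at 5 months and 9.95, 10.69, 10.87 and 10.66 at 1 year, so that the mice with high hair shaft genes were the high ones at both ages. After quantile normalisation 3 of the 32 were higher, at a median of 0.36. Without mouse 1 at 5 months 2 were higher, and 3 without mouse 3. Without mouse 2 or mouse 4 at 1 year 4 or 3 were higher. Of 16 basal keratinocyte genes 3 were higher and 1 lower, beside 6.82% and 9.95% of all genes. With the sex covariate limma called 0 of the 16, with 2 higher and 1 lower at an unadjusted p under 0.05. Sfn, an adaptor protein of stratified epithelium, read 3391.1, 5864.3 and 3650 units at 5 months and 6792.4, 11945.4, 21213.2 and 12973.4 units at 1 year. Itga6, an integrin that anchors basal cells, fell by 1.14 ± 0.31 on the log2 scale. The probe sets of the basal keratins Krt5 and Krt14, which define this layer, read 9.1 to 58.9 and 16.5 to 76.4 units on the 7 arrays and were left out as dim.

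**Figure D4:**
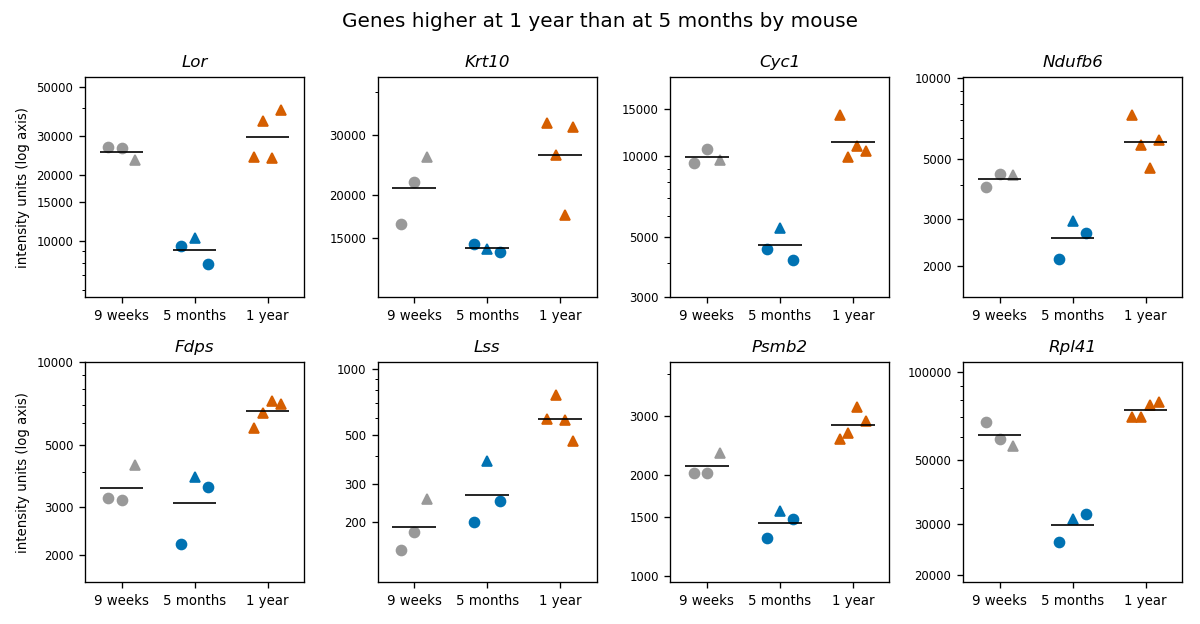
Intensity units on a log axis for 8 genes at 9 weeks, 5 months and 1 year, with 1 point per mouse (circle for the female marker, triangle for the male marker) and a bar at the geometric mean. Each of the 8 is higher at 1 year than at 5 months without overlap, and Lor at 9 weeks lies at 23356.4 to 26596.8 units, with the 1-year mice.

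Mitochondrial genes were higher at 1 year in part. Of 63 genes for subunits of oxidative phosphorylation, which makes ATP from oxygen, 19 were higher, 0 lower and 44 did not pass, beside 6.82% of all genes higher, with a median of 0.49. Cyc1, cytochrome c1 of complex III, read 4532.3, 5411.4 and 4123 units at 5 months and 14270.2, 9961.9, 10886.5 and 10449 units at 1 year, a change of 1.28 ± 0.15 (limma adjusted p = 0.0017). Ndufb6 of complex I read 2123.6, 2941.3 and 2652.6 units and then 7301.8, 5636.6, 4657.6 and 5906.7 units, a change of 1.19 ± 0.17. Ndufa8 changed by 0.87 ± 0.13 and Cox6a1 of complex IV by 0.87 ± 0.12. These 4 did not overlap between the ages, nor did 27 of the 63 in all, beside 30.5% of all genes. After quantile normalisation 11 of the 63 were higher (median 0.33) and with the sex covariate 5 (median 0.42). The number was 7 without mouse 1 and 9 without mouse 3 at 5 months, 12 without mouse 4 at 1 year and 30 without mouse 3 at 1 year. Of 22 genes of mitochondrial fatty acid oxidation 3 were higher and 0 lower. With the sex covariate limma called 0 of the 22, with 3 higher and 0 lower at an unadjusted p under 0.05. Against 9 weeks the median of the oxidative phosphorylation list was 0.08 at 1 year and -0.32 at 5 months.

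Skeletal muscle, which is rich in mitochondria, lies beneath the skin. Of 45 muscle genes 3 were higher and 0 lower, a share close to the 6.82% of all genes higher, with a median of 0.50 that was 0.20 after quantile normalisation. With the sex covariate limma called 0 of the 45, with 4 higher at an unadjusted p under 0.05 and a median of 0.49. Ckm, muscle creatine kinase, read 2925.6, 2690.1 and 2106.2 units at 5 months and 9043.9, 4897.5, 1591.8 and 4937.5 units at 1 year without passing (0.76 ± 0.45). Mouse 3 at 1 year, with the strongest hair shaft genes, was thus the lowest of its age, and mouse 1 the highest. The 3 that passed were Des (0.58 ± 0.17), Tnnt1 (2.11 ± 0.56, with another probe set at -0.77 ± 0.32) and Atp2a1, which rose by 0.89 ± 0.25 but changed by -0.10 after quantile normalisation. The part of muscle RNA in the mitochondrial values was not tested.

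Of 32 proteasome genes, subunits of the machine that degrades tagged proteins, 8 were higher and 0 lower (median 0.29), beside 6.82% of all genes higher. Psmb2 read 1300.2, 1564.3 and 1472.9 units at 5 months and 2552.5, 2666.7, 3186.1 and 2883.6 units at 1 year, a change of 0.96 ± 0.13 (limma adjusted p = 0.00209) that was 0.94 after quantile normalisation. Psmc3 changed by 0.81 ± 0.16, while 2 other probe sets of it changed by 0.02 ± 0.26 and 0.10 ± 0.12. Leaving out any 1 mouse gave 3 to 7 higher, with 3 without mouse 1 and 4 without mouse 3 at 5 months, 4, 5 and 5 without mice 2, 3 and 4 at 1 year, and 5 without any 1 of the 9-week mice. The sex covariate gave 1.

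Ribosomal protein genes were higher as deposited, 16 of 24 with 1 lower and a median of 0.53, beside 6.82% of all genes higher. After quantile normalisation, however, 1 was higher and 1 lower and the median turned to -0.06. Rpl41, the brightest probe set on the arrays, read 25924.7, 31315.4 and 32416.4 units at 5 months and 70277.8, 69900.5, 77150.5 and 78877 units at 1 year. Its change of 1.31 ± 0.13 (limma adjusted p = 0.00126) became 0 after quantile normalisation. That 0 was fixed in advance, because the method gives the brightest probe set of every array the same value. These genes lie at the bright end of the arrays, where the ages differed in their highest signals, and their probe sets may also read processed copies. Without mouse 1 or mouse 3 at 5 months 9 or 10 were higher, and with the sex covariate 7.

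**Figure D5:**
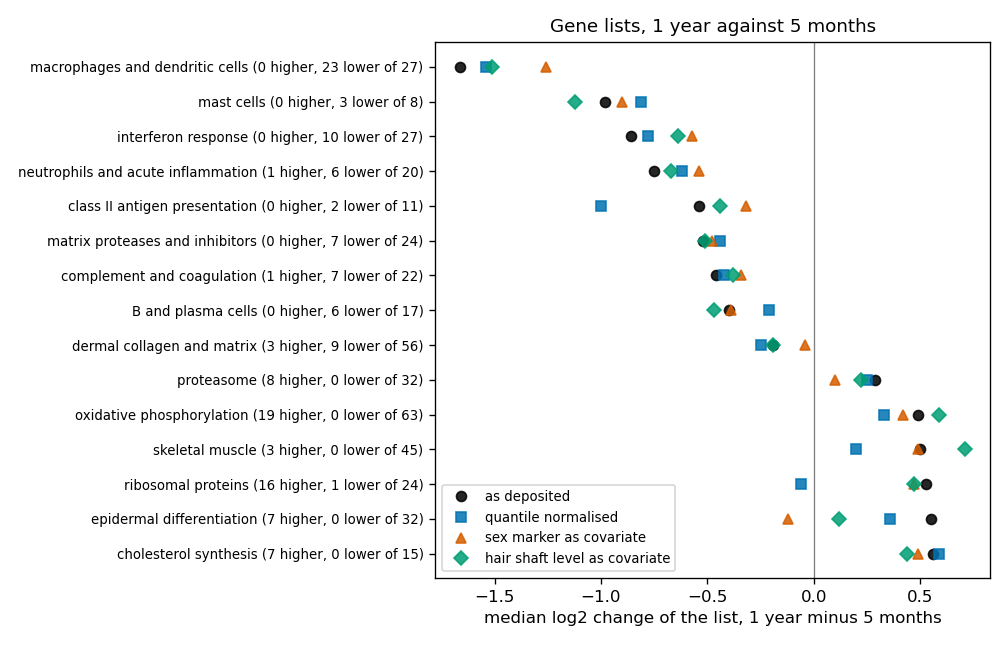
Median log2 change (1 year minus 5 months) of 15 gene lists, as deposited, after quantile normalisation, and with the sex marker or the hair shaft level as a covariate. The macrophage and dendritic cell list lies between -1.66 and -1.26 under all 4, while ribosomal proteins (-0.06 after quantile normalisation) and epidermal differentiation (-0.12 with the sex covariate) cross 0.

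Of 18 genes of the circadian clock, whose levels follow the time of day, 3 were lower and 1 higher at 1 year, beside 9.95% and 6.82% of all genes. The 1 higher was Csnk1d at 0.69, and its probe sets disagreed. Another one passed as lower, at -1.04 ± 0.31 (limma adjusted p = 0.0455), and a further one did not pass, at -0.06 ± 0.15. With the sex covariate limma called 0 of the 18, with 1 higher and 2 lower at an unadjusted p under 0.05. Dbp, a clock output gene, read 1022.8, 340.3 and 793.4 units at 5 months and 270.3, 120.3, 155.1 and 271.2 units at 1 year, a change of -1.76 ± 0.40 (limma adjusted p = 0.0159). Per1 changed by -1.44 ± 0.37 (adjusted p = 0.0262), whereas Arntl (0.21 ± 0.18), Per2 (-0.87 ± 0.56) and Nr1d1 (-0.28 ± 0.29) did not pass. Of 31 immediate early genes, which cells switch on soon after a stimulus, 6 were lower and 1 higher, and with the sex covariate 1 was lower and 1 higher. Ccn2, a matricellular growth factor also known as CTGF, read 1499, 1271 and 1744.9 units at 5 months and 455.4, 345, 428.6 and 437.7 units at 1 year, a change of -1.85 ± 0.23, and was also lower than at 9 weeks (-2.30, adjusted p = 0.00653). Sgk1, a kinase gene induced by glucocorticoids, changed by -0.94 ± 0.14 and was lower than at 9 weeks by a like amount (-1, adjusted p = 0.0287).

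Few growth arrest genes were called, and in both directions. Of 30 genes of senescence and the p53 response 2 were higher and 4 lower, beside 6.82% and 9.95% of all genes, with a median of -0.07. Under the sex covariate limma called 0 of the 30, with 2 higher and 3 lower at an unadjusted p under 0.05. Cdkn1a, the cell cycle inhibitor p21, read 1171.9, 1398.2 and 1044.7 units at 5 months and 1597.4, 2205.9, 2961.3 and 2265.2 units at 1 year, a change of 0.88 ± 0.21 (limma adjusted p = 0.0173), while a second probe set changed by 0.48 ± 0.27 without passing. At 9 weeks Cdkn1a read 1947.4 to 2599.3 units, within the 1-year range. Mdm2, which restrains p53, fell by 1.01 ± 0.21 on the log2 scale. Cdkn2a, a gene often used to mark senescent cells, was dim on all 7 arrays, at 22.5 to 108.6 units, and was not tested.

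The largest single increase was of a probe set that was dim at 5 months. Smyd2, a lysine methyltransferase gene, read 62.3, 59.2 and 56.1 units at 5 months and 820.6, 517.8, 622.6 and 357.2 units at 1 year, a change of 3.23 ± 0.37 (limma adjusted p = 0.00159). Its 9-week values were 87.4, 99.8 and 231.3 units, so that it lay below its 1-year values at both younger ages (2.13 lower at 9 weeks on the log2 scale, limma adjusted p = 0.041). It passed the filter on dim probe sets, at 127.8 units, only through the 1-year arrays. Abhd8, a hydrolase-like gene, rose by 2.27 ± 0.27 from 43.5 to 84.5 units at 5 months to 279.9 to 386.4 units at 1 year, but read 239.7 to 356.1 units at 9 weeks, and its second probe set changed by 0.44 ± 0.42. Map3k6, a stress kinase gene, read 280.7, 582.9 and 267.7 units and then 709.7, 1101.3, 3005 and 1297.2 units, with 1414.6 to 1842.3 units at 9 weeks. Mgst3, a membrane glutathione transferase, rose by 1.16 ± 0.15 (adjusted p = 0.00191) from 2047 to 2702 units to 4626.7 to 5607.5 units and kept the call with the sex covariate (0.94, adjusted p = 0.0223).

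Some decreases belonged to no immune list. Dnajb9, a chaperone of the endoplasmic reticulum, read 991.5, 521.4 and 630.9 units at 5 months, 191.1, 159.5, 128.7 and 130.4 units at 1 year and 105.2 to 149.4 units at 9 weeks, although its second probe set changed by -0.09 ± 0.42. Plac8, a gene of leukocytes and epithelium, read 7618.9, 2752.3 and 5469 units at 5 months and 1091.4, 734.6, 316 and 533.3 units at 1 year, and was also lower than at 9 weeks (-3.34, limma adjusted p = 0.0373). Sema3e, a guidance factor for vessels and nerves, fell by 2.73 ± 0.39 on the log2 scale from 349.3 to 568 units to 15.2 to 109.4 units. Sfrp4, a secreted inhibitor of Wnt signalling, fell by 2.39 ± 0.50, from 436.4 to 867 units to 74.3 to 367.1 units. Wnt4, a Wnt ligand of skin, rose by 0.92 ± 0.20 from 426.3 to 481.6 units to 654.2 to 1012.3 units. Of 27 adipocyte genes 1 was higher, Cebpb at 0.52 ± 0.14, and 0 lower, beside 6.82% and 9.95% of all genes. Adipoq changed by -0.14 ± 0.27 without passing. Of 26 endothelial genes 1 was higher, Sox18 at 0.70 ± 0.18, with another probe set at -0.06 ± 0.18, and 2 were lower, Lyve1 at -1.80 ± 0.48 and Cd34 at -0.83 ± 0.26. Pecam1 (0.20 ± 0.22) and Cdh5 (0.01 ± 0.26) did not pass. For both lists limma called 0 genes with the sex covariate, with 5 adipocyte and 2 endothelial genes higher and 0 lower at an unadjusted p under 0.05.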

How the data were processed

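The deposited values are linear array intensities, which the authors had scaled to a like trimmed mean, as the values show; the sources used here name no software or scanner. Values under 32.7 units, the table's 20th percentile, were raised to it before log2 was taken, and probe sets above the 40th percentile (127.8 units) on at least 3 of the 10 adult arrays were kept. Symbols came from the platform annotation, updated to GRCm38.p6; 10855 probe sets had 1 symbol, 396 several and 1237 none. Where a gene had several probe sets, the one with the highest mean stood for it.

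The 3 ages shared 1 fit of 10 arrays in limma 3.58.1 (R 4.3.3) with an intensity trend, and p was adjusted by Benjamini-Hochberg over 7891 probe sets. A change is 1 year minus 5 months on the log2 scale, with its SE; "lower" and "higher" counts are at adjusted p under 0.05. The labels number mice, but nothing else says how samples were taken, so p-values measure the spread between these samples. Lists are described by counts and medians, with no test of a list. Lists can share members, as Ctss is counted in the macrophage, class II and matrix protease lists, so their counts are not separate.

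Genes were named by a rule: the 12 largest increases and decreases with no overlap of ages, the 4 called genes of smallest p in each list (fewer where fewer were called), and fixed hair, sex, clock, growth arrest, collagen and cell type genes, named in part here; others are named for completeness of a list or, like Spi1, after their values were seen. Members, lists and rule were chosen with earlier results of these data known. Alternatives were other scalings, floors, filters and fits, each mouse left out, and the mouse number as a block; the sex covariate and males alone were added after the data were seen. The model was tested on simulated data.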

Additional observations from a re-analysis of the deposited data

Results flagged for a closer look

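At 1 year some levels stood apart in 1 of the 4 mice, by a gap to the nearest other mouse that took a larger share of the group's range than Dixon's critical value for 4 samples allows. Of 211 named genes and lists examined 17 did so, and chance flags about 1 in 20 groups. The 3 mice at 5 months are too few for this rule.

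Mouse 1, the only 1-year mouse with low hair shaft genes, stood apart in Krt25 (ratio 0.859; 14.6 units against 10257.6 to 26413.9) and Krt27 (0.872; 29 against 12222.3 to 29109.7), both inner root sheath keratins. It was also the lowest in Adam19 (0.833), in the mean log2 level of basal keratinocyte genes (0.932; 10.53 against 10.7 to 10.72) and in that of collagen and matrix genes (0.861; 9.76 against 10.1 to 10.15).

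Mouse 3, with the highest hair shaft genes, was the lowest in Krt1 (0.972; 3563.4 units against 8370.7 to 8579.5), H2-D1 (0.969; 14539.6 against 24338.3 to 24744.9), Mbp (0.935), Mdm2 (0.865) and Ephx1 (0.843). It was also the lowest in the mean log2 level of endothelial genes (0.936; 8.05 against 8.4 to 8.42) and of smooth muscle and pericyte genes (0.83; 9.01 against 9.33 to 9.4).

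Mouse 2 was the highest in Barx2, a follicle transcription factor gene (0.851; 103.2 units against 21.7 to 38.8). In 4 genes the ratio was 1 because the other 3 mice lay under the floor of 32.7 units: Ccn5 in mouse 3 (51.3 units), Ncf4 in mouse 2 (45 units), and Napsa (85.5 units) and Ptprc (45.5 units) in mouse 1.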

How the results depend on the processing

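The number of macrophage genes lower stayed within 1.5 times of 23 under every setting tried except the sex covariate (15) and males alone (0). In males alone 0 genes passed in any list, as 1 mouse stood for 5 months, and all 128 named genes that were called kept their direction. Leaving out 1 mouse gave 142 to 641 probe sets higher and 208 to 833 lower, with 67 to 126 of the 128 still called. A filter on at least 5 arrays kept 118 of the 128. Per list this gave 4 to 7 matrix protease, 5 to 11 matrix, 4 to 8 complement, 3 to 7 inflammation and 5 to 12 interferon genes lower, and 7 to 30 oxidative phosphorylation, 9 to 16 ribosomal, 2 to 7 cholesterol, 2 to 9 epidermal and 3 to 7 proteasome genes higher.

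Deviations from the mean of each age correlated at 0.44, 0.17 and -0.13 between mice 1, 2 and 3 of the 2 ages. Between mice of unlike number they correlated at -0.5 to 0.36. Mouse 1 had low hair shaft genes at both ages, so these values cannot show whether the numbers pair mice. With the number as a replicate block 192 probe sets were higher and 315 lower, with 6 interferon genes lower and 9 oxidative phosphorylation, 9 ribosomal, 4 cholesterol, 3 epidermal and 3 proteasome genes higher. The sex covariate gave 97 higher and 136 lower, with 3 protease, 2 matrix, 3 complement, 1 inflammation and 2 interferon genes lower and 5 oxidative phosphorylation, 7 ribosomal, 0 cholesterol, 1 epidermal and 1 proteasome gene higher. The hair shaft covariate gave 6 interferon genes lower and 4 cholesterol and 4 proteasome genes higher.

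Fits that shared more or reweighted spread called more: array weights gave 981 higher and 1364 lower (32 oxidative phosphorylation and 13 epidermal genes), and all 25 arrays 1062 and 1489 (34 oxidative phosphorylation and 13 proteasome genes higher, 10 inflammation and 14 matrix genes lower). Median centring gave 876 and 483. Quantile normalisation gave 11 oxidative phosphorylation, 1 ribosomal and 3 epidermal genes higher. With no filter 6 interferon genes were lower and 4 cholesterol, 4 epidermal and 4 proteasome genes higher. Proteasome genes higher numbered 5 with no trend or with the 7 arrays alone.

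Directions turned for the ribosomal median (-0.06), Perp (-0.27), Atp2a1 (-0.10) and Rplp0 (-0.01) after quantile normalisation, and for Csnk1d with probe sets averaged (-0.14). The epidermal median turned with the sex covariate (-0.12) or in males alone (-0.04). Rpl41, the brightest probe set, went to 0 after quantile normalisation, as the method fixes in advance. The -0.14 of Csnk1d averages probe sets that changed by 0.69, -1.04 and -0.06. For the other turns no explanation was examined. The cause of those turns was not tested. Probe sets near the floor have only a bound.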
